A study of Homo sapiens with 6 samples.

Results

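Cholesterol and fatty acid synthesis is represented here by 29 genes, chosen by symbol from the 27328 loci of the deposited table, and each of the 29 was found once. They are 19 enzymes of the route from acetyl-CoA to cholesterol, GGPS1 on a branch of it included, 6 genes of sterol sensing and transport, and 4 enzymes of fatty acid synthesis. Their levels were read in 6 RNA-seq libraries of SACC-83, an established human line grown from an adenoid cystic carcinoma of a salivary gland. The 3 overexpression libraries (titled OE) came from SACC-83 cells that overexpressed circMYBL1, a circular RNA named after the gene MYBL1. The 3 vector libraries (titled Vec) came from SACC-83 cells with the vector control, and their genotype is labelled WT. The genotype labels of OE replicates 1, 2 and 3 read circMYBL1, circMYBL2 and circMYBL3 overexpression, while the design text has circMYBL1 alone, so treating the 3 as replicates is uncertain. The labels do not say whether libraries of a group are separate cultures, so the p-values cover the spread among these 6 libraries alone, and that spread may be technical. The study sequenced the cells to look for target genes of the circular RNA.

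Cells build cholesterol from acetyl-CoA by way of mevalonate, isoprenoid diphosphates, squalene and lanosterol, and they build fatty acids from the same acetyl-CoA. The transcription factors SREBP-1 and SREBP-2, encoded by SREBF1 and SREBF2, are made as membrane precursors that SCAP and the INSIG proteins hold in the endoplasmic reticulum while sterols are plentiful. When sterols fall, SCAP escorts the precursors to the Golgi, where they are cut, and the freed factors switch on most of the genes described here. The same route supplies the farnesyl and geranylgeranyl groups that anchor many signalling proteins in membranes.

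Levels are given as FPKM, fragments divided by transcript length and by the library's total, as the authors deposited them, and the read depth behind them is unknown. Summed FPKM was 379404 to 408826 in overexpression libraries and 371776 to 393350 in vector libraries. MYBL1, the host gene of the circle, read 359, 44.0 and 2025 FPKM in overexpression replicates 1, 2 and 3, against 7.15 to 10.3 FPKM in the vector libraries, a gene-level value that does not measure the circle itself. The 8 epithelial markers were all detected, but KRT19 read 0.243 to 1.10 FPKM and did not pass the filter on low values. The 8 summed to 2169 to 2686 FPKM in overexpression and 2061 to 2272 FPKM in vector libraries. Of the 9 markers of adenoid cystic carcinoma and myoepithelial cells, KIT was at 0 in every library, SOX10, CNN1 and EN1 stayed under 1 FPKM, and the other 5, MYB, MYBL1, NFIB, TP63 and ACTA2, passed the filter on low values, MYB at 0.688 to 1.21 FPKM and TP63 at 11.7 to 33.7 FPKM. Of the 5 acinar markers, 4 were at 0. The 9 summed to 80.9 to 2046 FPKM in overexpression and 24.3 to 52.9 FPKM in vector libraries, mostly MYBL1 and TP63. The 4 fibroblast markers summed to 2.95 to 8.78 FPKM in overexpression and 4.04 to 11.2 FPKM in vector libraries, nearly all of it COL1A1, with COL1A2 at 0. The 3 endothelial markers summed to 0.199 to 1.38 FPKM in overexpression and 0.101 to 1.71 FPKM in vector libraries. Of the 3 leukocyte markers, PTPRC and CD3E were at 0. CD68 read 6.49 to 10.8 FPKM in overexpression and 7.19 to 8.04 FPKM in vector libraries.

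Promoter sequences were found in RefSeq for 25 of the 29 genes. They are shown for 6 genes described below. HMGCS1 and LSS are enzymes that were low at replicate number 2, and INSIG1 is the gene whose groups were apart. SREBF2, SREBF1 and STARD4, regulators and a carrier, had both number 2 libraries above the other 4, as had 35.9% of tested loci. Each sequence starts 250 bases before the most upstream RefSeq start on GRCh38.p14, ends at the last base before the first exon in GENCODE release 29, and is read 5′ to 3′ on the gene's strand. HMGCS1 is at chr5:43313513-43313662 on the minus strand, LSS at chr21:46228825-46229024 on the minus strand and INSIG1 at chr7:155297628-155297775 on the plus strand. SREBF2 is at chr22:41832855-41833078 on the plus strand, SREBF1 at chr17:17837003-17837236 on the minus strand and STARD4 at chr5:111512591-111512785 on the minus strand. Capitals mark CCAAT, the letters recognised by the factor NF-Y, on either strand (ATTGG where it lies on the other one).
HMGCS1: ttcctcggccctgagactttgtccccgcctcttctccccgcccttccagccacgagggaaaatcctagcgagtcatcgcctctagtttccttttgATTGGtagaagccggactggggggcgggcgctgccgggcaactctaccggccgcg
LSS: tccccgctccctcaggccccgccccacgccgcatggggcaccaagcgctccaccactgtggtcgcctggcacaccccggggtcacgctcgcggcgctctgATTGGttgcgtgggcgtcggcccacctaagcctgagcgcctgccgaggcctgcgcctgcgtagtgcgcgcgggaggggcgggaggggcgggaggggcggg
INSIG1: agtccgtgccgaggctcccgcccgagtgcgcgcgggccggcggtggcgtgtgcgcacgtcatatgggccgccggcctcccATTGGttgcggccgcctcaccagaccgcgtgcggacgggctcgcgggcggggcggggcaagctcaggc
SREBF2: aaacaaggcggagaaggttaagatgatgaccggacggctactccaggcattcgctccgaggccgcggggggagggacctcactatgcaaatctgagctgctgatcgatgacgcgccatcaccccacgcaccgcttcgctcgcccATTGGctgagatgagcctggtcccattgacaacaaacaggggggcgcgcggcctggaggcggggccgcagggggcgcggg
SREBF1: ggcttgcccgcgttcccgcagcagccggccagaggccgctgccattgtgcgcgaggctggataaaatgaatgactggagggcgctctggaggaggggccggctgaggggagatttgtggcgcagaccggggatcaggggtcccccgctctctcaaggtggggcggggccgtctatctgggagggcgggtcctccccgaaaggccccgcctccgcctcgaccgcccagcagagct
STARD4: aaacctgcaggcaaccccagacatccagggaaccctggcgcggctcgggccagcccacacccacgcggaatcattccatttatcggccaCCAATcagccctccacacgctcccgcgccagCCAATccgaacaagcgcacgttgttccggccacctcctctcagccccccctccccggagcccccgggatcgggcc
CCAAT stood 55 bases before the annotated start in HMGCS1, 100 in LSS, 68 in INSIG1 and 80 in SREBF2, and 106 and 75 bases before it in STARD4, counted to the first base of the match. SREBF1 held none. In the full windows of 250 bases, CCAAT was found in 20 of the 25 genes (80.0%), against 37.0% of 27305 genes with a promoter in the same table. CYP51A1, INSIG2, PMVK, SCAP and SREBF1 were the 5 genes without it. GGGCGG, the core letters of an Sp1 site, was found on either strand in 24 of the 25 (96.0%), against 46.2% of genes. No base of the 36 windows of these genes lay in a match of both motifs. The 27305 genes were not limited to the tested loci, all 29 genes were tested, and the shares among tested loci were not computed. Letters of this kind describe a window and show no binding.

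Per unit length, the most abundant of the 29 transcripts belonged to the early and middle steps of the sterol route. HMGCS1, which makes HMG-CoA, averaged 299.9 FPKM over the 6 libraries, at the 98.6th percentile of the tested loci. FDFT1, squalene synthase, averaged 282 FPKM and FDPS, farnesyl diphosphate synthase, 243 FPKM. Their ranges of 159 to 403, 182 to 368 and 170.5 to 315 FPKM overlapped, so the order of these 3 neighbours does not exceed their spread. SCD, the desaturase that makes oleate, followed at 180.2 FPKM and ACLY, which cuts citrate to acetyl-CoA, at 133 FPKM. The range of SCD, 158 to 203 FPKM, lay wholly above that of ACLY, 97.2 to 148 FPKM. EBP, MSMO1 and FASN were near each other at 106, 103 and 102 FPKM. At the other end, GGPS1 averaged 9.98 FPKM, PMVK 7.08 FPKM and INSIG2 6.23 FPKM, where neighbouring ranges overlapped but that of GGPS1 (7.58 to 13.7 FPKM) lay above that of INSIG2 (4.59 to 7.22 FPKM). TM7SF2 averaged 2.53 FPKM and ACAT2 1.16 FPKM, the lowest of the 29 (0.585 to 1.87 FPKM). Summed over the 29 genes, the transcripts made up 0.607%, 0.554% and 0.627% of all FPKM in overexpression replicates 1, 2 and 3, and 0.566%, 0.435% and 0.576% in vector replicates 1, 2 and 3. Vector replicate 2 held the lowest share.

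Some of these values rest on loci that share sequence, and whether counting used strand is not given in the sources used here. ACAT2 shares 397 exon bases with TCP1 on the opposite strand, a chaperonin gene read at 67.2 to 191 FPKM, so reads of the low ACAT2 cannot be told apart from it. GGPS1 shares 1422 exon bases with TBCE on its own strand, and CYP51A1 shares 2844 with a neighbouring annotated gene that read 0.173 FPKM in 1 library and 0 in the other 5. SREBF1 shares 556 bases with RAI1 and MVK 306 with MMAB on the opposite strands. FDPS, CYP51A1, HSD17B7 and SCD have 8, 3, 2 and 1 annotated pseudogenes that carry their name. The levels of these genes are uncertain to that extent.

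Most of the 29 genes had higher average levels in the overexpression libraries, by small amounts, and no single gene passed the test. Of the 29, 27 were higher on average on the log2(FPKM + 1) scale (93.1%), against 58.1% of the 12064 tested loci, and GGPS1 and ACACA were the 2 below. The median log2 fold change, a difference of log2(FPKM + 1) that understates changes of low genes, was 0.16 over the 29 genes and 0.03 over all tested loci. In limma with Benjamini-Hochberg adjustment over all tested loci, 0 of the 29 genes passed an adjusted p of 0.05 and 0% of loci did, the smallest adjusted p of any locus being 0.672. At an unadjusted p under 0.05 there was 1 of the 29, INSIG1, against 0.539% of loci. With replicate number as a block, 0 of the 29 passed (0.0995% of loci did), while 10 of the 29 (34.5%) had an unadjusted p under 0.05, against 7.19% of loci. All 10 were higher in the overexpression libraries, against 4.81% of loci in that direction: MVK, MVD, IDI1, FDPS, FDFT1, LSS, NSDHL, HSD17B7, EBP and INSIG1.

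**Figure D1:**
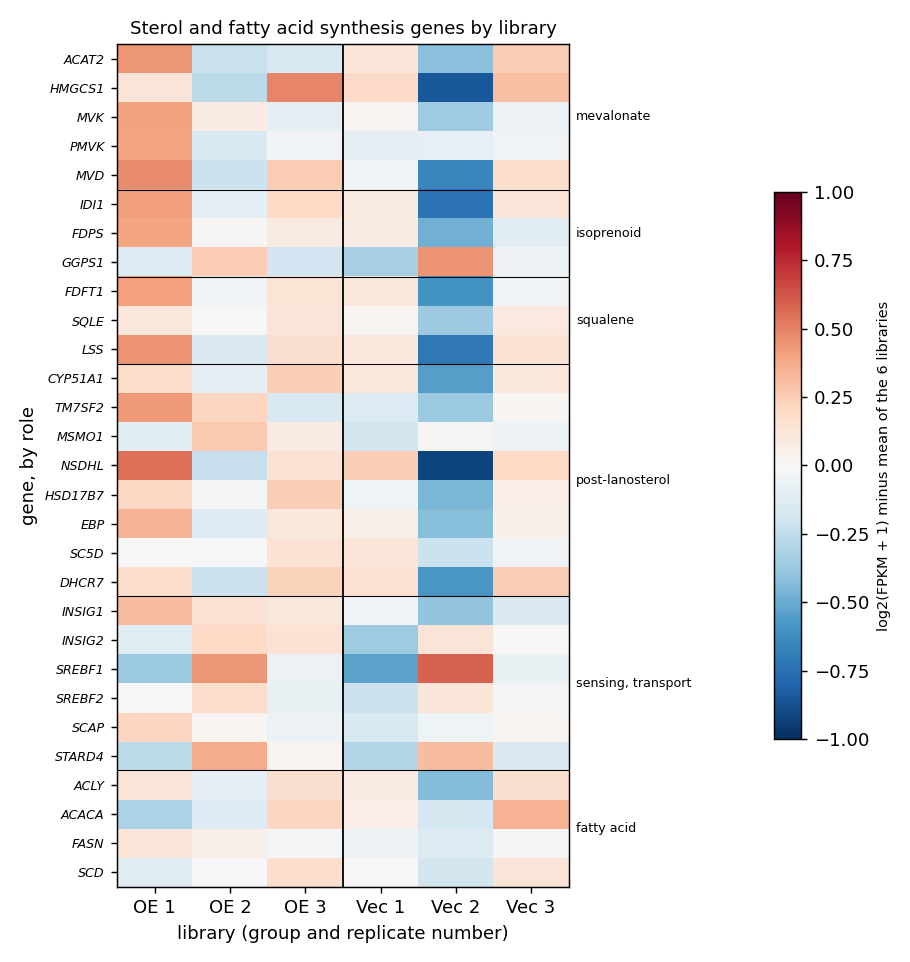
Level of each of the 29 genes in each library, as log2(FPKM + 1) minus the gene's mean over the 6 libraries (colour), with overexpression (OE) libraries left of vector (Vec) libraries and genes in rows by role. Vec 2 was the lowest library for 20 of the 29 genes and OE 1 the highest for 14.

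The difference was not the same in each pair of libraries with 1 replicate number. In number 1, 25 of the 29 genes were higher in the overexpression library (86.2%, against 59.0% of loci), with a median difference of 0.25, against 0.06 over all tested loci. In number 2, 26 were higher (89.7%, against 58.9% of loci), with a median of 0.34, against 0.04. In number 3, 18 were higher (62.1%, against 42.0% of loci), with a median of 0.03, against -0.03. A total of 14 genes were higher in 3 of 3 pairs (48.3%, against 16.5% of loci). The 2 medians of 0.25 and 0.34 thus stand beside 1 pair whose median lay near that of all tested loci. The share of genes that were higher still exceeded that of loci in number 3. MYBL1 read 359, 44.0 and 2025 FPKM in the overexpression libraries numbered 1, 2 and 3. Whether the size of the difference follows its level was not tested.

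Part of this came from 1 library. Vector replicate 2 had the lowest of the 6 values for 20 of the 29 genes, while overexpression replicate 1 had the highest for 14. Without vector replicate 2, 22 of the 29 genes were higher in the overexpression libraries, against 58.2% of loci. The median log2 fold change was then 0.097, against 0.041 over all tested loci. The fold changes of HMGCS1, DHCR7, NSDHL, ACLY, SCD and ACAT2 were then below 0 (-0.13, -0.14, -0.066, -0.058, -0.048 and -0.16). Without overexpression replicate 2 or vector replicate 3 the median was 0.25, against 0.0038 and 0.037 over all tested loci. With library weights it was 0.028 and 19 of the 29 were higher, against -0.022 and 43.2% over all tested loci. The difference in number 1 also ran with the GC content of the transcripts across loci, which are not independent replicates (Spearman 0.533 over 11166 loci, against 0.117 in number 2 and -0.091 in number 3). After a correction for GC content and length, chosen after the data were seen, 25 of the 29 were higher and the median was 0.14.

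**Figure D2:**
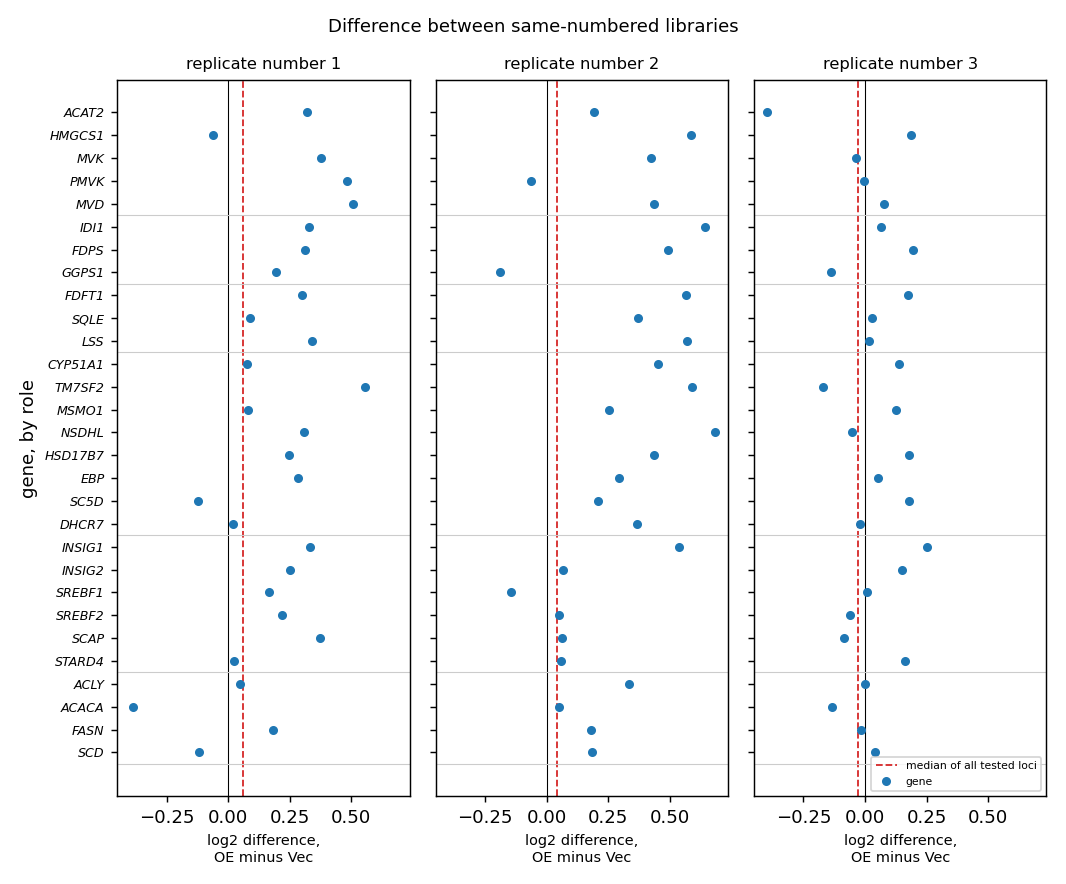
Difference in log2(FPKM + 1), overexpression (OE) minus vector (Vec) library, for each of the 29 genes (points, rows by role) in each replicate number (panels), with the median of all tested loci as a dashed line. In numbers 1 and 2, 25 and 26 of the 29 points lie above 0, and in number 3, 18.

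INSIG1 was the 1 gene of the 29 whose groups did not overlap, as was so for 3.34% of loci (2.50% with all overexpression libraries above and 0.845% with all below). A count of 1 in 29 is near that background. INSIG1, at chromosome 7, 155297776 to 155310235 on the plus strand, encodes a protein that retains the SCAP and SREBP complex in the endoplasmic reticulum, and it is itself an SREBP target. It read 85.1, 76.0 and 74.0 FPKM in overexpression replicates 1, 2 and 3, against 67.4, 52.1 and 62.0 FPKM in vector replicates 1, 2 and 3. All 3 overexpression libraries lay above all 3 vector libraries. The log2 fold change was 0.37 (SE 0.15, limma unadjusted p = 0.0405, adjusted p = 1; with the block SE 0.095, unadjusted p = 0.00291, adjusted p = 0.350). Within numbers 1, 2 and 3 the overexpression level was 1.26, 1.46 and 1.19 times the vector level. INSIG2, its paralog with the same retention role, read 5.64, 7.22 and 6.93 FPKM in the overexpression libraries, against 4.59, 6.85 and 6.14 FPKM in the vector libraries. Per unit length, INSIG1 exceeded INSIG2 by 15.1, 10.5 and 10.7 times in overexpression replicates 1, 2 and 3, against 14.7, 7.60 and 10.1 times in vector replicates 1, 2 and 3. The ratio was highest in number 1 of both groups and lowest in vector replicate 2.

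The other sensing and transport genes differed little between groups. SREBF2 averaged 54.0 ± 4.92 FPKM in overexpression and 51.5 ± 6.18 FPKM in vector libraries (SD, n = 3 each), a log2 fold change of 0.069 (SE 0.15). SREBF1 averaged 23.2 ± 6.98 FPKM in overexpression and 23.6 ± 9.71 FPKM in vector libraries, with 0.0091 (SE 0.33), a sign that turned under TPM, trimmed-mean and quantile scaling. SCAP, the sterol-sensing escort, averaged 17.4 ± 1.85 FPKM in overexpression and 16.0 ± 1.08 FPKM in vector libraries, with 0.12 (SE 0.14). STARD4, a soluble carrier of cholesterol between membranes, averaged 28.9 ± 6.69 FPKM in overexpression and 27.2 ± 6.42 FPKM in vector libraries, with 0.082 (SE 0.23). Without overexpression replicate 2, and also without vector replicate 1, the signs of SREBF1, SREBF2 and STARD4 turned. On the log2 scale the 6 genes of this role were all higher on average, with a median of 0.10, although the FPKM mean of SREBF1 was lower in the overexpression libraries, and INSIG1, INSIG2 and STARD4 were higher in 3 of 3 pairs. The ratio of SREBF2 to SREBF1 was 3.05, 1.93 and 2.32 in overexpression replicates 1, 2 and 3, against 2.96, 1.67 and 2.44 in vector replicates 1, 2 and 3. It followed the replicate number in both groups.

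In the mevalonate stage all 5 genes were higher on average, with a median log2 fold change of 0.24. MVD, which makes isopentenyl diphosphate, read 42.1, 25.7 and 35.9 FPKM in overexpression replicates 1, 2 and 3, against 29.4, 18.7 and 34.0 FPKM in vector replicates 1, 2 and 3. Each overexpression library was above the vector library of its own number, but the groups overlapped because both libraries numbered 2 were low (log2 fold change 0.34, SE 0.27). HMGCS1 read 315, 239.5 and 403 FPKM in the overexpression libraries, against 329, 159 and 354 FPKM in the vector libraries (0.24, SE 0.34). In number 1 the direction was opposite, with an overexpression level 0.958 times the vector level. MVK, mevalonate kinase, averaged 32.5 ± 6.03 FPKM in overexpression and 26.9 ± 3.75 FPKM in vector libraries (0.25, SE 0.18). PMVK, the next kinase, gave 0.14, which came from overexpression replicate 1 at 9.52 FPKM, against 6.22 to 6.82 FPKM in the other 5 libraries, and was -0.025 without it. ACAT2, the cytosolic thiolase at the start of the route, gave 0.038 at the uncertain levels given above.

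Among the isoprenoid genes, IDI1 and FDPS were higher in 3 of 3 pairs and GGPS1 in 1 of 3. IDI1, which isomerises isopentenyl diphosphate, read 57.3, 39.9 and 49.1 FPKM in overexpression replicates 1, 2 and 3, against 45.5, 25.2 and 46.9 FPKM in vector replicates 1, 2 and 3 (0.34, SE 0.27). FDPS read 315, 241 and 255 FPKM in the overexpression libraries, against 253, 171 and 222 FPKM in the vector libraries (0.33, SE 0.20; with the block, limma unadjusted p = 0.00485, adjusted p = 0.447). In both genes overexpression replicate 1 was the highest library and vector replicate 2 the lowest. GGPS1, which makes geranylgeranyl diphosphate for protein prenylation, read 8.81, 11.9 and 8.47 FPKM in the overexpression libraries, against 7.58, 13.7 and 9.42 FPKM in the vector libraries (-0.045, SE 0.24). Its highest value was that of vector replicate 2, and without that library its fold change was 0.17. The ratio of FDPS to GGPS1 was 35.7, 20.2 and 30.1 in overexpression replicates 1, 2 and 3, against 33.4, 12.5 and 23.6 in vector replicates 1, 2 and 3.

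All 3 genes from farnesyl diphosphate to lanosterol were higher in 3 of 3 pairs. FDFT1, which commits farnesyl diphosphate to sterols, read 368, 270.3 and 304 FPKM in overexpression replicates 1, 2 and 3, against 299, 182 and 269.7 FPKM in vector replicates 1, 2 and 3 (0.35, SE 0.23; with the block, limma unadjusted p = 0.00579, adjusted p = 0.46). LSS, which folds squalene epoxide into lanosterol, read 67.6, 44.4 and 55.3 FPKM in the overexpression libraries, against 53.2, 29.6 and 54.6 FPKM in the vector libraries (0.31, SE 0.28). SQLE, the squalene epoxidase, read 86.0, 79.8 and 86.7 FPKM in the overexpression libraries, against 80.8, 61.4 and 84.9 FPKM in the vector libraries (0.16, SE 0.16). In each of the 3 the gap within number 2 was the widest of the pairs, and the groups overlapped.

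The 8 enzymes that turn lanosterol into cholesterol were all higher on average, with a median log2 fold change of 0.22, and CYP51A1, MSMO1, HSD17B7 and EBP were higher in 3 of 3 pairs. NSDHL, which strips a carboxyl group at the C4 carbon of the sterol, read 44.2, 25.2 and 33.1 FPKM in overexpression replicates 1, 2 and 3, against 35.5, 15.3 and 34.3 FPKM in vector replicates 1, 2 and 3 (0.31, SE 0.35). Vector replicate 2 lay far below the other 5 libraries. HSD17B7, the ketone reductase of the same step, averaged 40.2 ± 3.93 FPKM in overexpression and 33.1 ± 6.15 FPKM in vector libraries (0.29, SE 0.18). EBP, the sterol isomerase, averaged 114 ± 18.6 FPKM in overexpression and 98.6 ± 17.8 FPKM in vector libraries (0.21, SE 0.20). CYP51A1, the lanosterol demethylase, gave 0.22, MSMO1, the C4 methyl oxidase, 0.15, DHCR7, the last reductase of one branch, 0.12 and SC5D, the desaturase before it, 0.089. TM7SF2, a sterol reductase, gave 0.33 at 2.12 to 3.65 FPKM in overexpression and 1.68 to 2.51 FPKM in vector libraries. For MSMO1, overexpression replicate 2 was the highest library at 123 FPKM. Summed over the 19 enzymes from acetyl-CoA to cholesterol, levels were 1834, 1442 and 1748 FPKM in overexpression replicates 1, 2 and 3, against 1609, 1043 and 1599 FPKM in vector replicates 1, 2 and 3.

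The 4 fatty acid genes had a median log2 fold change of 0.076, with 3 of 4 higher on average. FASN, the fatty acid synthase, read 112, 106 and 101 FPKM in overexpression replicates 1, 2 and 3, against 98.3, 93.2 and 103 FPKM in vector replicates 1, 2 and 3 (0.12, SE 0.12). ACLY averaged 138 ± 13.4 FPKM in overexpression and 128 ± 27.1 FPKM in vector libraries (0.13, SE 0.19) and was the 1 gene of the 4 higher in 3 of 3 pairs, by 0.0016 in number 3. SCD averaged 182 ± 18.9 FPKM in overexpression and 178 ± 19.5 FPKM in vector libraries (0.036, SE 0.15). ACACA, which makes malonyl-CoA, had the lowest log2 fold change of the 29 genes. It read 22.3, 25.6 and 32.7 FPKM in the overexpression libraries, against 29.4, 24.7 and 35.9 FPKM in the vector libraries (-0.16, SE 0.20), lower in numbers 1 and 3. The 4 summed to 444, 434 and 484 FPKM in overexpression replicates 1, 2 and 3, against 447, 373 and 483 FPKM in vector replicates 1, 2 and 3. Whether fatty acid and sterol genes differ in their response was not tested.

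**Figure D3:**
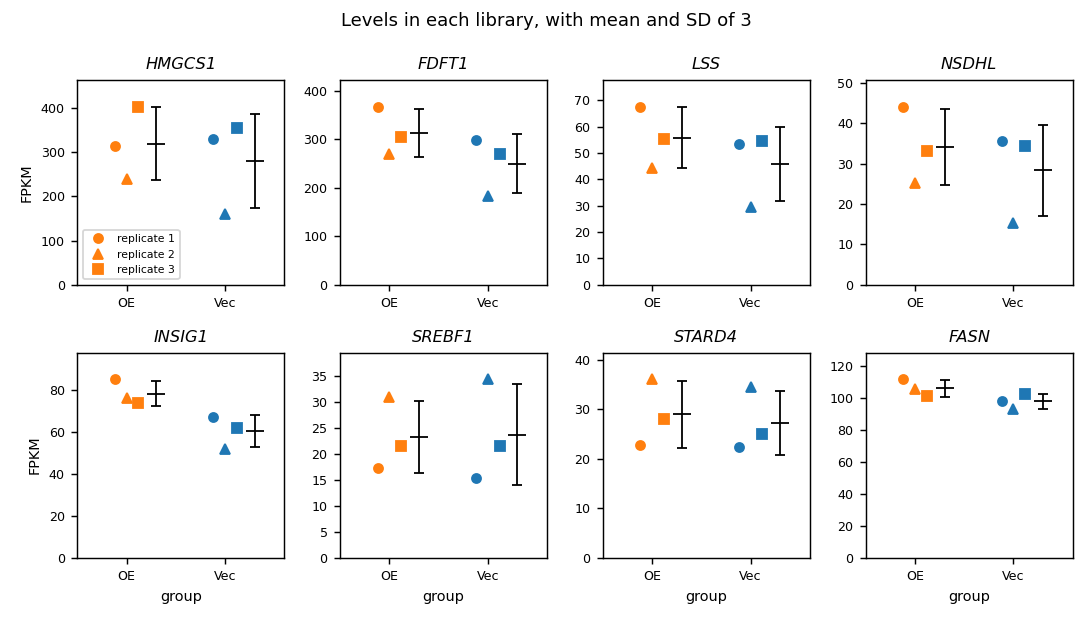
FPKM of 8 of the genes in overexpression (OE, left) and vector (Vec, right) libraries, with a marker shape for each replicate number and a bar for mean ± SD of the 3 libraries. INSIG1 is the panel in which the OE libraries (74.0 to 85.1) all lie above the Vec libraries (52.1 to 67.4); SREBF1 and STARD4 are highest at number 2 in both groups, and HMGCS1, FDFT1, LSS and NSDHL lowest there.

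With replicate number, log2 differences of the 29 genes reached -0.86, where those between the groups reached 0.37, and most sterol enzymes were low in number 2 while SREBF1 and STARD4 were high. In the limma fit with group and replicate number, an F-test over the 3 numbers passed an adjusted p of 0.05 for 16 of the 29 genes (55.2%), against 46.5% of loci, which is near the background. Of the 16, 13 were lower in number 2 than in the mean of numbers 1 and 3 (44.8% of the 29, against 19.3% of loci) and 3 were higher (10.3%, against 27.2% of loci). The sign was read from the contrast of number 2 with numbers 1 and 3, which itself did not pass for ACACA (limma adjusted p = 0.119). The median log2 difference of number 2 was -0.23 over the 29 genes and 0.07 over all tested loci. This contrast was chosen with earlier results of these data known. Without vector replicate 2, 5 of the 29 passed, against 30.4% of loci: HMGCS1, MVD and NSDHL lower and SREBF1 and STARD4 higher. The median was then -0.11, and without overexpression replicate 2 it was -0.38. Under TPM scaling the calls were 12 lower and 6 higher and under quantile scaling 10 lower and 5 higher, while over all loci the share of calls that were lower was 41.4%, against 33.7% under TPM, 50% under TMM and 51.9% under quantile scaling.

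**Figure D4:**
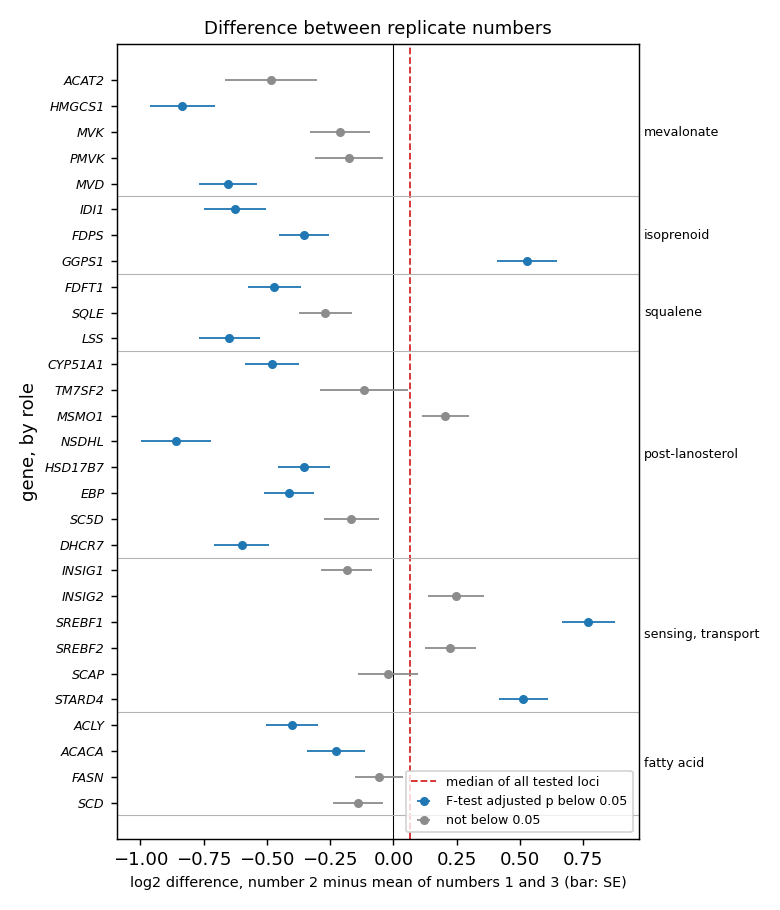
Log2 difference of the libraries numbered 2 minus the mean of those numbered 1 and 3 for each of the 29 genes (points, with SE bars), by role, with the median of all tested loci as a dashed line. Of the 16 genes called by the F-test, 13 lie below 0, all enzymes, from NSDHL at -0.86 to ACACA at -0.23, and SREBF1, GGPS1 and STARD4 lie above it at 0.77, 0.53 and 0.51.

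Of the 19 enzymes of the cholesterol route, 11 were called lower in number 2 (57.9%, against 19.3% of loci). GGPS1, on the prenylation branch, was the 1 called higher (5.26%, against 27.2% of loci). NSDHL read 25.2 and 15.3 FPKM in the OE and Vec libraries numbered 2, against 33.1 to 44.2 FPKM in the 4 libraries numbered 1 and 3 (log2 difference -0.86, SE 0.14, limma F-test adjusted p = 0.00219). HMGCS1 read 239.5 and 159 FPKM in number 2, against 315 to 403 FPKM in numbers 1 and 3 (-0.83, SE 0.13, limma F-test adjusted p = 0.00151). In both genes the 2 libraries numbered 2 lay below the other 4, as was so for 11 of the 29 genes and 25.7% of loci. LSS, at 44.4 and 29.6 FPKM in number 2 and 53.2 to 67.6 FPKM in numbers 1 and 3, differed by -0.65 (SE 0.12, limma F-test adjusted p = 0.00483). MVD, IDI1 and DHCR7 followed at -0.65, -0.63 and -0.60, CYP51A1, FDFT1 and EBP at -0.48, -0.47 and -0.41, and FDPS and HSD17B7 at -0.35 and -0.35. Under quantile scaling FDPS (-0.16, limma F-test adjusted p = 0.200), FDFT1 (-0.29, 0.0566) and EBP (-0.27, 0.0567) did not pass, and HSD17B7 did not under TPM (-0.29, 0.0645) or without a trend (0.0668). The drop was present in both groups and wider in the vector group: HMGCS1 in number 2 was at 0.667 times the mean of numbers 1 and 3 among overexpression libraries and at 0.466 times among vector libraries, and NSDHL at 0.653 and 0.439 times. Whether the drop differs between groups was not tested, since each number has 1 library a group. ACAT2, MVK, PMVK, SQLE, TM7SF2, MSMO1 and SC5D did not pass, with differences from -0.48 for ACAT2 to 0.20 for MSMO1.

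SREBF1 and STARD4 ran the other way. SREBF1 read 30.9 and 34.3 FPKM in the OE and Vec libraries numbered 2, against 15.2 to 21.5 FPKM in numbers 1 and 3 (0.77, SE 0.11, limma F-test adjusted p = 0.00063). STARD4 read 36.0 and 34.5 FPKM in number 2, against 22.3 to 28.1 FPKM in numbers 1 and 3 (0.51, SE 0.10, limma F-test adjusted p = 0.00417). GGPS1 read 11.9 and 13.7 FPKM in number 2, against 7.58 to 9.42 FPKM in numbers 1 and 3 (0.53, SE 0.12, limma F-test adjusted p = 0.0122). In all 3 genes both libraries numbered 2 lay above the other 4, a separation seen in 4 of the 29 genes and in 35.9% of loci. SREBF2 also had both above the other 4 but did not pass (0.22, limma F-test adjusted p = 0.18), nor did INSIG2 (0.25), INSIG1 (-0.18) or SCAP (-0.022, with a sign that turned under TPM). Of the fatty acid genes, ACLY fell (-0.40, SE 0.10, limma F-test adjusted p = 0.0254), but did not pass under quantile scaling (-0.24, 0.0796), without a trend (0.0527) or without vector replicate 2 (-0.25, 0.467). ACACA passed the F-test, with a mean of 25.2 FPKM in number 2, 25.9 FPKM in number 1 and 34.3 FPKM in number 3, while FASN (-0.057) and SCD (-0.14) did not pass.

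Other genes moved with replicate number as well. What a replicate number marks (a culture, a day or a batch) is not labelled. Of the 7 epithelial markers tested, 4 were called for replicate number (46.5% of loci were). Of these, 3 were higher in number 2 (27.2% of loci were called so) and 1 was lower (19.3%). KRT5, KRT14 and CDH1 differed by 1.72, 1.12 and 0.85, and KRT7 by -0.92. KRT5, a basal keratin, read 347 and 412 FPKM in number 2, against 94.9 to 142 FPKM in numbers 1 and 3, and KRT7, a simple-epithelial keratin, 304 and 234 against 428 to 679 FPKM. The summed level of the 8 epithelial markers was 2242 and 2061 FPKM in number 2, against 2169 to 2686 FPKM in numbers 1 and 3. Of the 5 markers of adenoid cystic carcinoma and myoepithelial cells tested, 4 were called. TP63 (1.06), ACTA2 (1.29) and NFIB (0.49) were higher in number 2 and MYBL1 (-2.32) lower. MYBL1, the host gene of the circle, read 44.0 FPKM in the OE library numbered 2, against 359 and 2025 FPKM in numbers 1 and 3. In vector libraries it read 7.15 to 10.3 FPKM. COL1A1 (1.15), the 1 fibroblast marker tested, was called higher, and CD68, the 1 leukocyte marker tested, was not called. The part of these markers in the result was not tested. Across loci the difference of number 2 had a Spearman correlation of -0.018 with GC content and 0.213 with transcript length, and with both corrected for, 18 of the 29 genes were called, 15 of them lower, against 50.1% of loci called, 50.3% of those lower. In bulk RNA, fewer cells that express a gene and less RNA per cell cannot be told apart.

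Genes next to the 29 in the pathway, from lists written with earlier results known, had medians between the groups nearer to that of all loci. No member of any of these lists passed the test between groups, with or without the block. Of 12 other sterol genes tested, 7 were higher on average in the overexpression libraries (58.1% of loci were), with a median log2 fold change of 0.066. For replicate number 4 of the 12 were called (46.5% of loci were), with ERG28, a scaffold of the C4 demethylation step, at -0.37 and TMEM97, an SREBP target that binds sterols, at -0.60, against NPC2, the lysosomal cholesterol carrier, at 0.31 and 1 further gene above 0. TMEM97 read 34.2 and 26.4 FPKM in number 2 and 43.0 to 53.2 FPKM in numbers 1 and 3. Both libraries numbered 2 thus lay below the other 4, as for NSDHL and for 25.7% of loci.

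Of 19 other fatty acid genes tested, 13 were higher on average in the overexpression libraries (68.4%, against 58.1% of loci), with a median of 0.084. For replicate number 7 were called (36.8%, against 46.5% of loci), 2 lower (10.5%, against 19.3%) and 5 higher in number 2 (26.3%, against 27.2%). These shares of calls were at or below the background. ELOVL1, an elongase of long saturated chains, read 47.2 and 36.1 FPKM in number 2, against 68.9 to 90.9 FPKM in numbers 1 and 3 (-0.84, SE 0.11), and MID1IP1, an activator of acetyl-CoA carboxylase, differed by -0.51. Higher in number 2 were ACSL1 and ACSL3, which load fatty acids onto CoA (1.12 and 0.49), ELOVL7 (0.73), the desaturase SCD5 (0.74) and ACSS2, which makes acetyl-CoA from acetate (0.58). Of 9 further genes of SREBP processing tested, 2 were higher on average in the overexpression libraries (58.1% of loci were), with a median of -0.069. For replicate number 3 of the 9 were called (46.5% of loci were). The proteases that free the SREBPs, encoded by MBTPS1 and MBTPS2, were higher in number 2 (0.34 and 0.40).

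The isoprenoid-using genes called for replicate number were all lower in number 2. Of 12 tested, 8 were higher on average in the overexpression libraries (66.7%, against 58.1% of loci), with a median of 0.061. For replicate number 5 were called (41.7%, against 46.5% of loci), all lower in number 2 (19.3% of loci were called so). PDSS1, which makes the side chain of coenzyme Q, differed by -0.65, and DHDDS and NUS1, the subunits that make dolichol chains, by -0.45 and -0.53. RCE1 and ZMPSTE24, proteases that trim prenylated proteins, differed by -0.46 and -0.55. ZMPSTE24 read 17.2 and 15.7 FPKM in number 2, against 21.4 to 27.3 FPKM in numbers 1 and 3.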

How the data were processed

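Per the labels' protocols, RNA came from a TRIzol extraction and libraries of purified mRNA were made with a NEBNext Ultra kit. The submitters' processing notes name HISAT2 and the build GRCh38. Which annotation, counter and strand setting were used is not given in the sources used here. Values are FPKM as deposited by the authors, for 27328 loci. They hold no depth, so no counting error is given.

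Loci with at least 1 FPKM in at least 3 of 6 libraries were kept (12064), and all 29 genes passed. Group was the only term of a linear model of log2(FPKM + 1) (limma 3.58.1, R 4.3.3, trended eBayes, 2-sided tests, Benjamini-Hochberg over all tested loci, threshold 0.05), and the code was tested on simulated data. An exact permutation test of 3 against 3 cannot go below p = 0.1. Replicate number was tested by an F-test beside group. With group means removed, libraries of equal number correlated at 0.725, 0.881 and 0.529 across loci, over the limit of 0.1, and those of different number at -0.818 to 0.424. OE replicate 1 with Vec replicate 3 (0.412) and OE replicate 3 with Vec replicate 1 (0.424) were also over this limit. The limit alone thus does not set numbers 1 and 3 apart from each other. The numbers were taken as pairs from the data and not from the labels, and a fit with the number as a block was an alternative. Others were the pseudocount, the filter, TPM, trimmed-mean (TMM) and quantile scaling, library weights, no trend, leaving out libraries, and a GC and length correction (lowess span 0.3) added after the data were seen.

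The 29 genes, the further lists and the contrast of number 2 were chosen with earlier results of these data known. Any of the 29 could be named; of each other list, genes called in a fit were named, and 2 such genes are not reported here. Positions come from GENCODE release 29, whose gene identifiers matched all 19974 Ensembl identifiers in the table, and promoters from RefSeq. Proteins were not used here.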

Additional observations from a re-analysis of the deposited data

How the results depend on the processing

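No setting made any of the 29 genes pass the test between groups, under any of the alternatives run, and the median log2 fold change of the 29 stayed above 0 in all of them (0.028 with library weights to 0.25 without vector replicate 3). Where values changed, the cause was not tested. Over all loci the group comparison called 12 with the replicate block, 14, 148 and 22 with the block and without both libraries numbered 1, 2 and 3, 2 with the block and the GC and length correction, 4 with no filter on low values and 346 with library weights, whose estimate did not fully converge, against 0 in the fit of group alone and 0 to 1 without single libraries. The block changed no call among the 29 genes. The replicate number was called for 3663 to 6174 loci and for 5 to 16 of the 29 genes without single libraries, and for 0 loci and 0 of the 29 with no filter.

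Log2 fold changes between groups that turned sign were SREBF1 (-0.011 under TPM, -0.019 under TMM, -0.027 under quantile scaling and -0.10 with the GC and length correction, with or without the block) and ACAT2 (-0.042 under quantile scaling, -0.35 with library weights and -0.0055 with the GC and length correction), and SCD under quantile scaling (-0.0053). With library weights TM7SF2 (-0.10), NSDHL (-0.037), DHCR7 (-0.039), SREBF2 (-0.040), SCAP (-0.060), FASN (-0.0025) and ACLY (-0.0089) turned too. In the replicate block without number 1, PMVK (-0.035), SREBF1 (-0.069), SREBF2 (-0.0050), SCAP (-0.013) and ACAT2 (-0.10) did, without number 2 DHCR7 (-0.00053), ACAT2 (-0.039), SCD (-0.038) and GGPS1 (0.027), and without number 3 GGPS1 (0.0023). Without single libraries the range was -0.025 to 0.25 for PMVK, -0.17 to 0.17 for ACAT2, -0.22 to 0.17 for GGPS1, -0.25 to 0.30 for SREBF1, -0.022 to 0.15 for SREBF2, -0.083 to 0.26 for STARD4, -0.048 to 0.11 for SCD, -0.13 to 0.45 for HMGCS1, -0.066 to 0.51 for NSDHL, -0.14 to 0.28 for DHCR7 and -0.058 to 0.24 for ACLY. The difference of number 2 turned to 0.051 for SCAP and 0.017 for FASN under TPM and to 0.067 for FASN and 0.033 for SCD under quantile scaling, and spanned -0.12 to 0.075 for SCAP and -0.32 to 0.081 for TM7SF2 without single libraries. With FPKM alone, counting error at low genes such as ACAT2 and TM7SF2 is unknown.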

Other observations

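A list of genes that carry sterols out of the cell or belong to the sterol-sensing receptors LXR and their targets was read the same way. Of 7 listed, 5 were tested, and 4 of the 5 were called for replicate number, all higher in number 2 (46.5% of tested loci were called, and 27.2% in that direction). LPCAT3, which puts polyunsaturated chains into phospholipids, read 25.1 and 32.3 FPKM in the OE and Vec libraries numbered 2, against 10.4 to 13.4 FPKM in numbers 1 and 3 (log2 difference 1.18, SE 0.11). NR1H3, which encodes LXR alpha, differed by 0.68, SMPDL3A, a phosphodiesterase, by 0.69 and MYLIP, a ubiquitin ligase that LXR induces, by 0.50. The efflux transporters ABCA1 and ABCG1 stayed under 1 FPKM in all 6 libraries. Between groups 0 of the 5 passed, with a median log2 fold change of 0.061.

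Of 16 fatty acid oxidation genes, 5 were called for replicate number (31.2%, below the 46.5% of all tested loci). ACADS, the short-chain dehydrogenase, read 7.28 and 7.41 FPKM in number 2, against 1.69 to 3.26 FPKM in numbers 1 and 3 (1.21, SE 0.16). HADHB and HADHA, the subunits of the trifunctional protein, differed by 0.83 and 0.31 and ETFDH, which passes the electrons on, by 0.63, while ECHS1, a hydratase, was lower (-0.39). Between groups 0 of the 16 passed and 8 were higher on average in the overexpression libraries (50.0%, against 58.1% of loci), with a median of -0.0044. These lists were written with earlier results known, and what differed between the numbered libraries was not tested.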
